A study of Gallus gallus with 10 samples.

Results

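Genes of liver plasma proteins and of liver amino acid breakdown were followed in chicken abdominal fat. The set held 34 gene symbols, chosen by name and with earlier results of these data known. Of these, 30 had at least 1 probe set on the Affymetrix Chicken Genome Array. SERPINC1, C9, AGXT and BHMT had none that carried their symbol alone and are named only. The 30 measured genes took 46 of the 38439 probe sets tested. They comprised 23 genes of secreted proteins, 6 of amino acid enzymes and MTTP, which works inside the cell in lipoprotein assembly. The enzyme group included UPB1, whose product acts in pyrimidine breakdown and forms beta-alanine. All birds were Arbor Acres males killed at 49 days of age, with 5 fat line and 5 lean line birds and 1 array a bird. The lines had been bred apart for abdominal fat and plasma very low density lipoprotein from 1 commercial grandsire stock, and within them the 5 birds with the most and the 5 with the least abdominal fat for their weight were used. All birds had the same feed and housing. The deposited values are MAS5 signal intensities, on a linear scale and without detection calls, so a low value does not show that a transcript was present.

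Hepatocytes make most proteins of blood plasma, among them albumin, fibrinogen and other clotting factors, complement components and lipoprotein shells, and release them into the circulation. They also hold the enzyme chain that breaks down tyrosine, which stays in the cell. Fat cells are not a major source of albumin or fibrinogen. In a bulk sample, fewer cells of a type and less RNA per cell cannot be told apart.

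The signal of these genes was highest in lean line birds 1 and 5. For each gene the log2 signal was expressed against its median over the 10 birds, and these deviations were averaged over the 30 genes. The average was -0.69, -0.02, -0.73, 0.30 and -0.62 in fat line birds 1 to 5, against 2.19, -0.22, -0.19, 0.18 and 1.58 in lean line birds 1 to 5. Lean line birds 2, 3 and 4 lay within the range of the fat line. Lean line bird 1 gave the highest signal of the 10 birds in 20 of the 30 genes, whereas it was the highest bird for 8.74% of all probe sets. Together with lean line bird 5, it made up the 2 highest birds in 15 of the 30 genes (50%), against 1.55% of all probe sets. In some of these genes lean line bird 5 was next-highest only narrowly. For FETUB it read 101.5 and for TDO2 449.9, against 97.9 and 443.3 in fat line bird 4. For HGD it read 121.2 against 120.7 in lean line bird 4, and for HPX 1350.6 against 1304.4 in fat line bird 2. Fat line bird 4 was the highest in 4 of the 30 genes (CP, C5, MTTP and UPB1), but it was also the highest bird for 27.8% of all probe sets, and its array had the highest median signal, 276.2 against 185.8 to 234.2 on the other arrays.

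**Figure D1:**
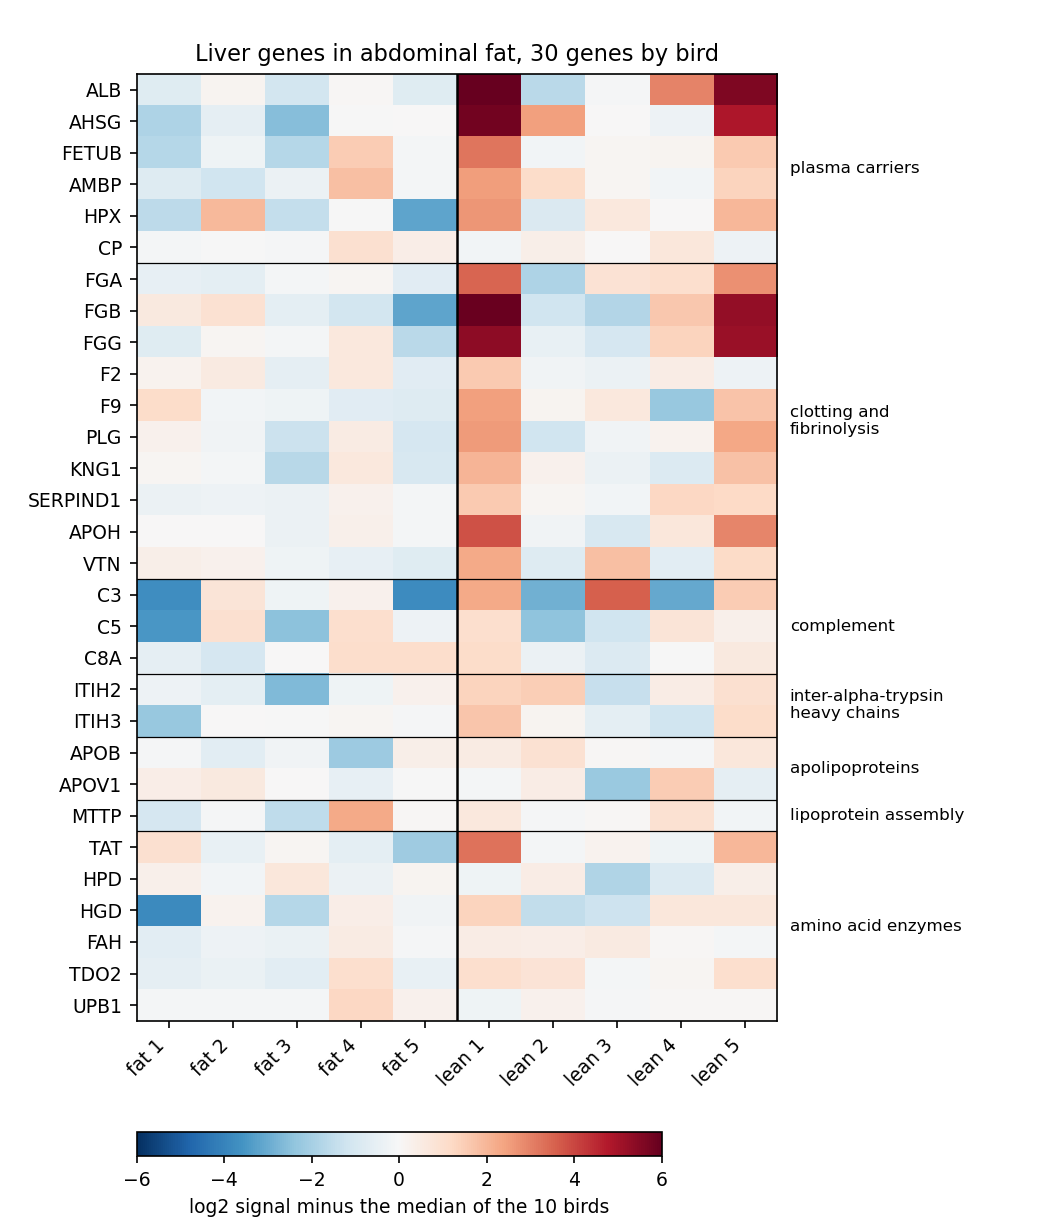
Signals of the 30 genes (rows, grouped by role) in the 10 birds (columns, fat line left of the black line, lean line right of it). Colour gives log2 signal minus the median of the 10 birds for that gene; values beyond 6 take the darkest shade. The red columns of lean line birds 1 and 5 run through most of the carrier and clotting genes, though not through F2 in lean line bird 5. They are pale in CP, APOB, APOV1, MTTP, HPD, FAH and UPB1, among others.

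The secreted proteins and the enzymes were then set side by side. Averaged over the 23 secreted protein genes, the deviation was -0.69, 0.02, -0.79, 0.20 and -0.70 in fat line birds 1 to 5, against 2.59, -0.29, -0.14, 0.20 and 1.89 in lean line birds 1 to 5. Averaged over the 6 enzyme genes it was -0.65, -0.20, -0.34, 0.36 and -0.41 in fat line birds 1 to 5, against 0.93, 0.05, -0.41, -0.02 and 0.67 in lean line birds 1 to 5. The highest birds on both averages were thus lean line birds 1 and 5. Their secreted protein average exceeded their enzyme average by 1.66 and 1.22 on the log2 scale. In the other 8 birds this difference lay between -0.45 and 0.27. For the enzymes, the lead of lean line birds 1 and 5 over fat line bird 4 depended on TAT. The deviation of TAT was 3.27 and 2.0 in these lean line birds, against -0.59 in fat line bird 4. Fat line bird 4 lay above both in UPB1 (1.24 against -0.27 and 0.09) and FAH (0.49 against 0.45 and -0.11). It lay below both in HGD, TDO2 and HPD, though only narrowly in TDO2. A signal of at least 4 times the 10-bird median was reached by none of these genes in any fat line bird, by 14 of 23 secreted protein genes and 1 of 6 enzyme genes in lean line bird 1, and by 7 secreted protein genes and no enzyme gene in lean line bird 5. In lean line birds 2, 3 and 4 it was reached by 1 secreted protein gene each, AHSG, C3 and ALB in that order. MTTP, kept apart from both groups, reached it in fat line bird 4. The share of all probe sets that reached it was 1.31% in lean line bird 1 and 1.04% in lean line bird 5. In lean line birds 2, 3 and 4 this share was 1.36%, 1.85% and 1.56%. It was 6.03% in fat line bird 4 and 0.351% to 0.643% in the other fat line birds. The summed signal of the 23 secreted protein genes was 2468 to 4590 in the fat line birds, against 50060 in lean line bird 1, 28012 in lean line bird 5 and 3094 to 7365 in the other lean line birds. Without ALB it was 2345 to 4300 in the fat line birds, against 24034 in lean line bird 1, 15285 in lean line bird 5 and 3010 to 7115 in the other lean line birds. The summed signal of the 6 enzyme genes was 1648 to 2325 in the fat line birds, against 1092 to 2586 in the lean line birds. Without HPD it was 579 to 1394 in the fat line birds, against 1580 in lean line bird 1, 1198 in lean line bird 5 and 774 to 977 in the other lean line birds.

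**Figure D2:**
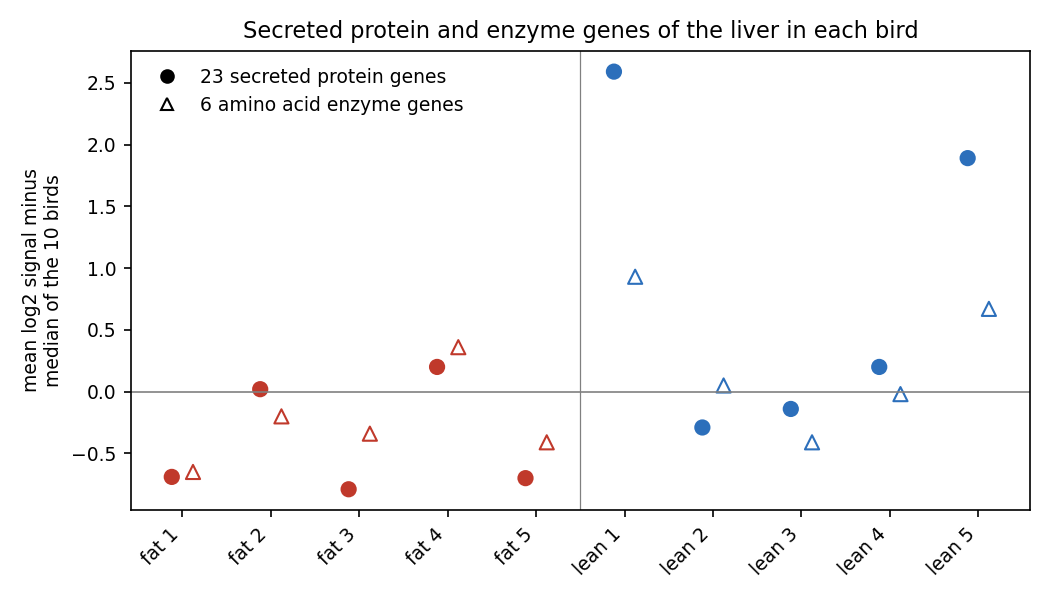
Mean deviation of the 23 secreted protein genes (filled circles) and of the 6 amino acid enzyme genes (open triangles) in each bird, in log2 units from the median of the 10 birds. Red marks the fat line (left), blue the lean line (right). Lean line birds 1 and 5 stand at 2.59 and 1.89 for the secreted proteins and at 0.93 and 0.67 for the enzymes.

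Between the lines, no gene of the set passed the test. With limma and adjustment over all probe sets, 0 of the 46 probe sets of the set had an adjusted p under 0.05, and neither did any of the 38439 probe sets (0%). SAM, run on all 10 birds and all probe sets, called 0 probe sets. At an unadjusted p under 0.05, 5 of the 30 genes (7 of 46 probe sets) were lower in the fat line, where 3.99% of all probe sets were, and none was higher, where 3.38% of all probe sets were. This count of 5 genes was 2 without lean line bird 1 or without lean line bird 5, and 9, 10 and 11 without lean line birds 3, 2 and 4 in that order. It was 0 without both lean line birds 1 and 5. Of the set, 1 gene was higher without lean line bird 2 and 1 without both lean line birds 1 and 5. Over all probe sets and both directions, 2835 passed with all birds. Without lean line birds 1 to 5 singly, 2475, 2505, 2745, 2437 and 3158 passed, and 2993 without both lean line birds 1 and 5. The log2 fold, fat line minus lean line, was below 0 in 25 of 30 genes (38 of 46 probe sets), against 55.7% of all probe sets. Its median was -0.98 over the 30 genes, -1.10 over the 23 secreted protein genes (20 below 0) and -0.61 over the 6 enzyme genes (4 below 0), against -0.05 over all probe sets. Every fat line bird lay under every lean line bird in none of the 30 genes when each was read from its brightest probe set, as against 0.687% of all probe sets, and the opposite order occurred in none, as against 0.705%. Without lean line birds 1 and 5 the medians were -0.33 over the 30 genes, -0.30 over the secreted protein genes and -0.37 over the enzyme genes. The median over all probe sets was then -0.10, and 20 of the 30 genes were below 0. Without lean line bird 1 alone the median over the 30 genes was -0.65, against -0.06 over all probe sets.

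**Figure D3:**
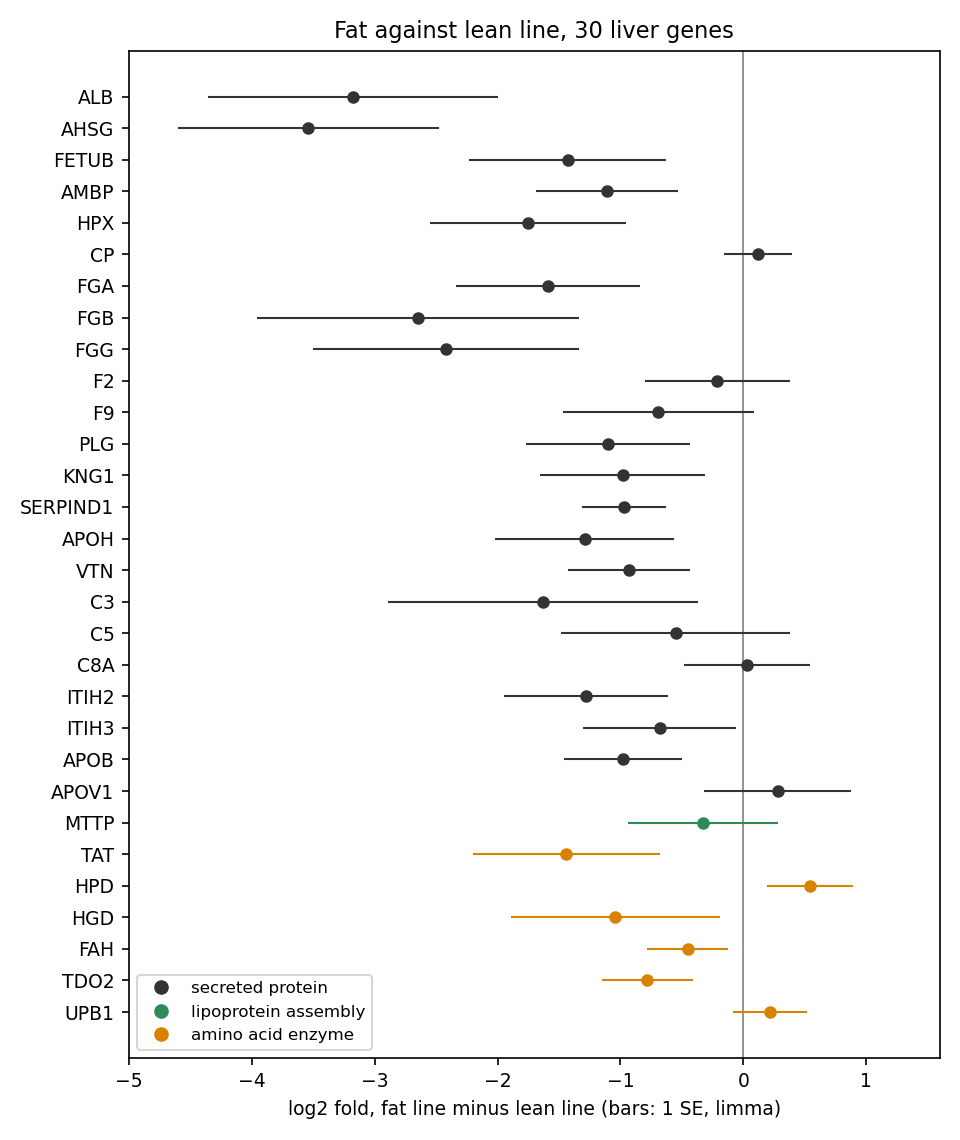
Log2 fold, fat line minus lean line, of each of the 30 genes (brightest probe set; points) with its standard error (bars, limma, 5 birds a line). Black marks secreted proteins, green MTTP and orange the amino acid enzymes. Most points lie left of 0 and no gene passed the adjusted threshold; the fold of AHSG (-3.54) becomes -1.76 with signals under 100 set to 100, while that of ALB (-3.18) becomes -3.24.

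Among the 6 carriers of plasma, 5 had a log2 fold below 0, against 55.7% of all probe sets, with a median of -1.59. ALB encodes albumin, the main protein of plasma. Its signal was 155.4, 289.8, 123.0, 270.4 and 154.4 in fat line birds 1 to 5, against 26025.9, 83.8, 250.3, 2067.8 and 12726.5 in lean line birds 1 to 5. Lean line birds 1, 5 and 4, in that order, lay above all fat line birds, while lean line bird 2 was the lowest of the 10. The log2 fold was -3.18 (SE 1.18, limma adjusted p = 0.575; exact permutation test over all splits of 5 against 5, two-sided, p = 0.127), and it was -0.91 without lean line birds 1 and 5. AHSG encodes fetuin-A, a calcium-binding plasma glycoprotein. Its signal was 10.6, 25.7, 6.4, 37.3 and 37.9 in fat line birds 1 to 5, against 2049.4, 207.0, 37.9, 30.8 and 1068.4 in lean line birds 1 to 5. Here bird 2 and not bird 4 came next in the lean line, and lean line birds 3 and 4 lay no higher than the fat line birds. The log2 fold of AHSG was -3.54 (SE 1.06, limma adjusted p = 0.449; exact permutation p = 0.0397), and -1.71 without lean line birds 1 and 5. All fat line signals of AHSG were under 100, where values carry little order, and with signals under 100 set to 100 its log2 fold was -1.76.

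HPX encodes hemopexin, which binds free heme. Its signal was 113.4, 1304.4, 125.5, 330.8 and 37.6 in fat line birds 1 to 5, against 2163.0, 186.5, 527.3, 347.5 and 1350.6 in lean line birds 1 to 5. Fat line bird 2 came close to lean line bird 5 in this gene, and the log2 fold was -1.75 (SE 0.80, adjusted p = 0.672; exact permutation p = 0.127). FETUB, the fetuin-B gene, read 10.3 to 97.9 in the fat line and 320.6 and 101.5 in lean line birds 1 and 5, with the other lean line birds at 30.3 to 38.0. AMBP encodes the precursor of alpha-1-microglobulin and bikunin; fat line bird 4 read 463.8 and the other fat line birds 58.1 to 123.1, against 762.1 in lean line bird 1 and 335.3 in lean line bird 5. CP, the gene of the copper-carrying ferroxidase ceruloplasmin, had the next-to-narrowest range of the set. Its signal was 293.6, 319.6, 306.5, 639.5 and 432.1 in fat line birds 1 to 5, against 289.7, 415.5, 328.5, 510.7 and 259.7 in lean line birds 1 to 5. Lean line birds 5 and 1 were the lowest of the 10 birds in this brightest probe set of CP. Its log2 fold was 0.12 (SE 0.28, adjusted p = 0.956, exact permutation p = 0.675). The dimmer probe sets of CP differed. In 1 of them lean line bird 1 was the highest bird, at 518.9 against 171.4 to 407.5 in the fat line birds, and lean line bird 5 read 241.5. In the others both lean line birds lay within the fat line.

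Fibrinogen, the precursor of the fibrin clot, is built from the products of FGA, FGB and FGG, which lie next to one another in the RefSeq annotation of the chicken genome (assembly GRCg7b) in the order FGB, FGA, FGG. FGB ranged over 9.09 on the log2 scale, or over 5.83 with signals under 100 set to 100. Its signal was 139.4, 174.8, 62.8, 43.4 and 10.4 in fat line birds 1 to 5, against 5679.7, 40.8, 27.9, 288.2 and 3645.5 in lean line birds 1 to 5. The signal of FGG was 42.7, 76.3, 66.4, 109.5 and 23.1 in fat line birds 1 to 5, against 2900.0, 52.2, 34.9, 179.6 and 2560.6 in lean line birds 1 to 5. The signal of FGA was 73.8, 70.2, 96.7, 114.5 and 66.3 in fat line birds 1 to 5, against 1179.5, 28.8, 190.7, 211.5 and 698.0 in lean line birds 1 to 5. All 3 chains had the same 3 birds on top, lean line birds 1, 5 and 4, all above every fat line bird, and lean line bird 2 below most of the fat line. The ratio of lean line bird 1 to lean line bird 5 was 1.56 for FGB, 1.13 for FGG and 1.69 for FGA. The log2 folds were -2.65 (SE 1.31) for FGB, -2.42 (SE 1.08) for FGG and -1.59 (SE 0.75) for FGA, with limma adjusted p of 0.703, 0.666 and 0.677. Without lean line bird 1 these folds were -1.67, -1.61 and -1.03, and without lean line birds 1 and 5 they were -0.24, -0.30 and -0.35, in the same order of genes. The dimmer probe set of FGA followed the same birds, at 877.0 in lean line bird 1 and 800.9 in lean line bird 5.

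APOH encodes beta-2-glycoprotein I, a phospholipid-binding regulator of clotting. Its signal was 108.0, 108.3, 85.4, 134.8 and 100 in fat line birds 1 to 5, against 1531.8, 94.4, 56.3, 173.6 and 823.8 in lean line birds 1 to 5. The fat line birds were close to one another in this gene, lean line bird 2 lay among them and lean line bird 3 lay below them. Its log2 fold was -1.29 (SE 0.73, adjusted p = 0.746; exact permutation p = 0.286), and it was -0.65 without lean line bird 1 and 0.12 without lean line birds 1 and 5. SERPIND1 encodes heparin cofactor II, an inhibitor of thrombin. Its signal was 170.9, 174.6, 171.0, 257.1 and 198.8 in fat line birds 1 to 5, against 646.3, 237.0, 194.0, 515.3 and 492.7 in lean line birds 1 to 5. Lean line bird 4 stood above bird 5, and lean line birds 2 and 3 lay within the range of the fat line. The log2 fold of SERPIND1 was -0.97 (SE 0.34, adjusted p = 0.558; exact permutation p = 0.0397) and -0.58 without lean line birds 1 and 5.

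**Figure D4:**
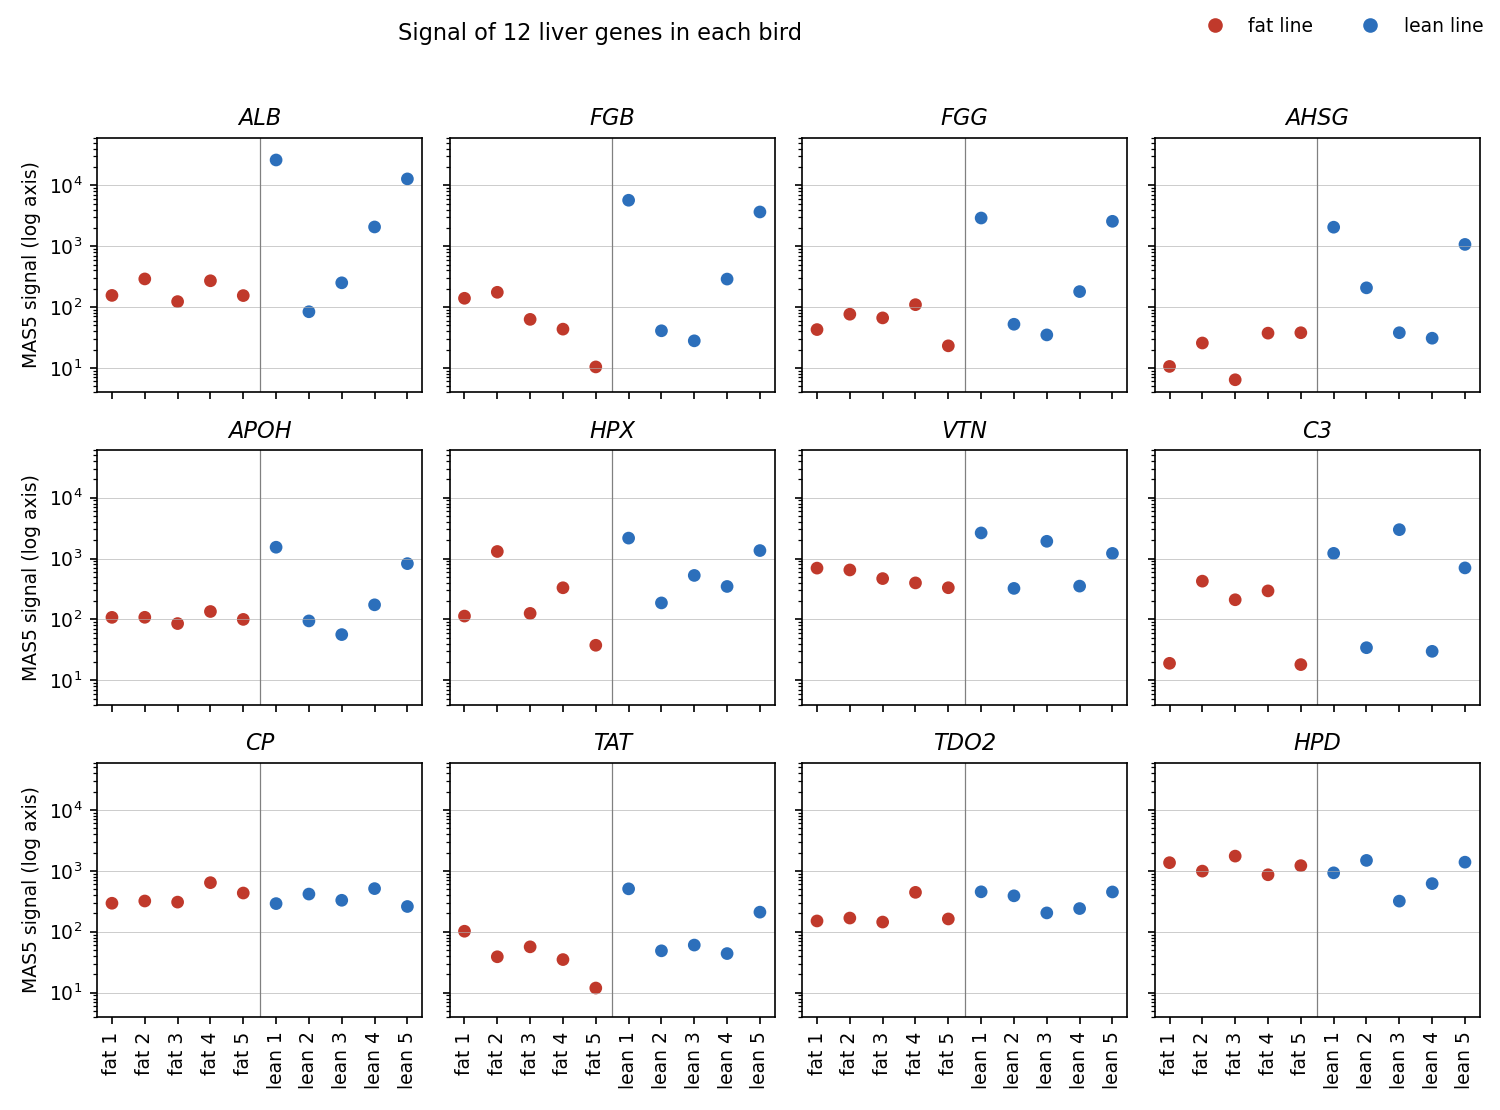
MAS5 signal (log axis) of 12 of the genes in each bird, fat line in red on the left and lean line in blue on the right, 1 point a bird. ALB, FGB, FGG, AHSG and APOH show lean line birds 1 and 5 above the rest; lean line bird 3 joins them in VTN and leads in C3; CP and HPD show neither bird above the rest.

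The remaining genes of clotting and fibrinolysis differed in how far they shared the pattern. PLG encodes plasminogen, the precursor of the fibrin-cutting enzyme plasmin. In its brightest probe set the fat line birds read 52.3 to 177.8. Lean line birds 1 and 5 read 762.2 and 641.8 there, and the other lean line birds 56.2 to 146.9. A dimmer probe set of PLG read 461.6 and 220.0 in lean line birds 1 and 5, with fat line bird 4 between them at 245.7. The dimmest stayed under 100 in all 10 birds. Lean line bird 3 was highest in it at 79.7, and lean line birds 1 and 5 read 11.7 and 10.6. KNG1, the kininogen gene, read 19.3 to 95.6 in the fat line birds, against 256.3 and 210.9 in lean line birds 1 and 5. F9, the gene of clotting factor IX, read 30.9 to 109.9 in the fat line birds, against 288.5 and 168.2 in these lean line birds. F2, the prothrombin gene, stayed under 100 in all 10 birds, with lean line bird 1 highest at 38.9, and it gives no usable order. VTN encodes vitronectin, an adhesive protein of plasma and matrix. The VTN signal was 331.2 to 695.4 in the fat line birds, against 2630.0, 1916.5 and 1212.8 in lean line birds 1, 3 and 5. All 10 genes of this group, F2 (-0.21) included, had a log2 fold below 0, against 55.7% of all probe sets. Their median was -1.04, with 0 adjusted calls. Lean line bird 1 lay above every fat line bird in all 10 and lean line bird 5 in 9, against 16.9% and 11.8% of all probe sets. Without lean line birds 1 and 5 the folds of FGB, FGG, FGA, SERPIND1 and APOH were -0.24, -0.30, -0.35, -0.58 and 0.12.

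The clotting and carrier genes can also be read by place. AHSG, FETUB, HRG and KNG1 follow one another in that order in the same annotation. HRG encodes histidine-rich glycoprotein, a plasma protein, and was on a separate list of other hepatocyte genes. Its signal was 133.7, 128.3, 86.8, 236.3 and 108.8 in fat line birds 1 to 5, against 244.4, 146.8, 19.2, 73.9 and 130.8 in lean line birds 1 to 5. Lean line bird 5 lay within the fat line for HRG, although it was the next-highest bird for the other 3 genes of the row.

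C3, the central component of complement, went by other birds. Its signal was 19.0, 424.8, 210.2, 293.9 and 18.1 in fat line birds 1 to 5, against 1215.3, 34.3, 2977.1, 29.9 and 700.9 in lean line birds 1 to 5. Lean line bird 3, in which the secreted proteins as a group averaged -0.14, had the highest C3 signal, and 2 birds of each line lay between 18.1 and 34.3. The log2 fold was -1.63 (SE 1.26, adjusted p = 0.823; exact permutation p = 0.357). It was -0.81 without lean line bird 3, -1.04 and -1.03 without fat line birds 1 and 5, and -2.47 without lean line bird 4. C5 is cleaved later in the complement cascade. Its brighter probe set read 178.1 and 169.9 in fat line birds 4 and 2, and 7.9 to 69.8 in the other fat line birds. Lean line birds 1 to 5 read 173.3, 16.2, 38.5, 150.2 and 109.2 there. In its dimmer probe set lean line bird 1 was the lowest of the 10 birds, at 5.3, and fat line bird 4 the highest, at 159.4. C8A encodes a chain of the membrane attack complex and its 2 probe sets disagreed. The brighter one read 61.4 to 260.3 in the fat line and 69.7 to 269.7 in the lean line, with a log2 fold of 0.03 (SE 0.51, adjusted p = 0.995). The dimmer one was 4.6, 10.2, 37.7, 17.1 and 14.1 in fat line birds 1 to 5, against 64.6, 72.6, 79.0, 65.2 and 62.2 in lean line birds 1 to 5. This was the only 1 of the 46 probe sets in which the lines did not overlap. Over all probe sets, 0.687% had every fat line bird under every lean line bird and 0.705% the reverse. The log2 fold of this dimmer C8A probe set was -2.36 (SE 0.62, limma adjusted p = 0.341). Its exact permutation p of 0.00794 is the smallest that test can give. All its signals were under 100, and lean line birds 1 and 5 did not stand out in it.

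ITIH2 and ITIH3 encode heavy chains of inter-alpha-trypsin inhibitor, which are transferred to hyaluronan in the matrix. ITIH3 read 25.2 to 133.2 in the fat line birds, against 389.6 and 263.1 in lean line birds 1 and 5. ITIH2 read 12.2 to 91.4 in the fat line birds, against 211.8 in lean line bird 2 and 194.0 and 146.8 in lean line birds 1 and 5. The log2 fold was -0.68 (SE 0.62, adjusted p = 0.853) for ITIH3 and -1.28 (SE 0.67, adjusted p = 0.731) for ITIH2.

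Among the lipoprotein genes the pattern depended on the probe set. APOB encodes apolipoprotein B, the structural protein of very low density lipoprotein, and had 7 probe sets. The brightest read 132.8, 89.6, 120.9, 30.6 and 177.0 in fat line birds 1 to 5, against 196.0, 265.4, 147.4, 134.1 and 226.7 in lean line birds 1 to 5, with a log2 fold of -0.98 (SE 0.48, adjusted p = 0.693; exact permutation p = 0.0397). In it, lean line birds 2 and 5 were the highest. Another read 50.1 to 216.1 in the fat line birds, against 2564.2 in lean line bird 1, 244.4 in lean line bird 5 and 10.3 to 121.1 in lean line birds 2 to 4. Lean line bird 1 read 10.5 times lean line bird 5 there. The other 5 probe sets of APOB reached at most 372.3, in fat line bird 4. APOV1 encodes apovitellenin-1, a yolk lipoprotein component made by the liver of laying hens. It read 75.8 to 156.2 in the fat line birds, against 298.3 in lean line bird 4 and 98.4 and 72.5 in lean line birds 1 and 5. MTTP, which loads lipid onto apolipoprotein B, had signals of 52.3, 100.2, 36.4, 500 and 108.8 in fat line birds 1 to 5, against 161.6, 100.2, 107.3, 198.1 and 93.6 in lean line birds 1 to 5. Fat line bird 4 stood highest, and the log2 fold was -0.33 (SE 0.61, adjusted p = 0.941; exact permutation p = 0.675). In the dimmer probe set of MTTP lean line bird 4 was the highest, at 129.1. Fat line bird 4 read 67.1 there, under 102.7 and 103.3 in fat line birds 1 and 2.

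The genes of the enzyme group split into those that followed lean line birds 1 and 5 and those that did not. TAT encodes tyrosine aminotransferase, which starts tyrosine breakdown in the liver. Its signal was 101.9, 38.8, 56.5, 34.9 and 11.9 in fat line birds 1 to 5, against 506.5, 48.6, 60.4, 43.8 and 209.7 in lean line birds 1 to 5. Only lean line birds 1 and 5 lay above the fat line, and the log2 fold was -1.44 (SE 0.76, adjusted p = 0.734; exact permutation p = 0.151), and -0.88 without lean line bird 1. HPD encodes the dioxygenase that acts next in this chain. Its signal was 1361.8, 989.8, 1746.0, 862.2 and 1217.0 in fat line birds 1 to 5, against 927.5, 1483.5, 318.2, 616.7 and 1387.5 in lean line birds 1 to 5. Every bird read at least 318.2, fat line bird 3 was the highest, and lean line bird 1 lay below 4 of the 5 fat line birds. The log2 fold of HPD was 0.54 (SE 0.35, adjusted p = 0.776; exact permutation p = 0.294), 0.20 without lean line bird 3 and 0.85 without lean line birds 1 and 5.

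HGD, whose product opens the ring of homogentisate, read 5.2 to 97.0 in the fat line birds, against 186.8 and 121.2 in lean line birds 1 and 5 and 120.7 in lean line bird 4. FAH encodes fumarylacetoacetase, the last enzyme of the chain, and had the narrowest range of the set. Its signal was 107.9, 135.6, 126.7, 236.2 and 161.3 in fat line birds 1 to 5, against 229.5, 218.1, 246.5, 175.0 and 155.2 in lean line birds 1 to 5. Lean line bird 5 was the lowest of its line for FAH, and the log2 fold was -0.45 (SE 0.33, adjusted p = 0.813; exact permutation p = 0.0873). TDO2, the gene of tryptophan dioxygenase, was at 443.3 in fat line bird 4 and 144.2 to 167.8 in the other fat line birds, against 452.5 and 449.9 in lean line birds 1 and 5 and 388.8 in lean line bird 2. UPB1 encodes beta-ureidopropionase, the last enzyme of pyrimidine breakdown, which forms beta-alanine. Its signal was 224.0, 229.6, 228.5, 582.3 and 297.3 in fat line birds 1 to 5, against 204.2, 294.8, 232.0, 263.1 and 262.4 in lean line birds 1 to 5. Fat line bird 4 was alone above the rest and lean line bird 1 was the lowest bird, with a log2 fold of 0.22 (SE 0.30, adjusted p = 0.921; exact permutation p = 0.667).

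Scan days and scanners came from the array records and were numbered here. Fat line bird 5 and lean line birds 1, 2 and 4 were read on scanner 1, the other birds on scanner 2. Scanner 1 served scan days 1 and 2, and scanner 2 served scan day 3. Wash runs were inferred here from the hybridization times recorded for the arrays, with a new run after a gap of more than 60 minutes. By this rule lean line bird 5 shared a wash run with fat line birds 1, 2 and 3. Lean line bird 1 shared a wash run with lean line bird 2. A wash of lean line bird 4 was recorded as stopped. Within the first of these runs the mean deviation was -0.69, -0.02 and -0.73 in fat line birds 1, 2 and 3, against 1.58 in lean line bird 5. Within the other run it was 2.19 and -0.22 in lean line birds 1 and 2, and that run held no fat line bird. The cause of these differences was not tested. With scan day as a block the median log2 fold over the 30 genes was -0.74, and with wash run as a block it was -0.81. Among the birds of scan day 3 alone (4 fat line birds and 2 lean line birds) it was -0.97, and between the 2 birds of scan day 1 (1 of each line, without a test) it was -0.65. Scan day 2 held only lean line birds 1 and 2 and gave no comparison of the lines.

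Other cell types were measured beside the liver genes with marker lists. All 8 fat cell markers were bright in all birds, with summed signals of 180514 to 213591 in the fat line birds and 158034 to 185341 in the lean line birds. Skeletal muscle markers (9 of 14 measured) summed to 1246 to 34856 in the fat line birds and 1966 to 126350 in the lean line birds. Their mean deviation was 3.32 in fat line bird 2, against 4.09 in lean line bird 3 and 5.37 in lean line bird 5, and 0.49 in lean line bird 1. Macrophage markers (10 of 12) summed to 64052 to 75063 in the fat line birds and 56024 to 97334 in the lean line birds; C1QA, which encodes a chain of complement C1q, was 1993.8 to 2808.3 in the fat line birds, against 6286.6 in lean line bird 3 and 1969.3 to 3209.7 in the other lean line birds. Intestinal markers (15 of 18) summed to 3414 to 4910 in the fat line birds and 3279 to 5597 in the lean line birds, with a mean deviation of 1.06 in lean line bird 1 and -0.32 in lean line bird 5. Exocrine pancreas markers (12 of 16) summed to 1605 to 3450 in the fat line birds and 2781 to 3947 in the lean line birds. Kidney markers (9 of 17) summed to 1279 to 2264 in the fat line birds and 1355 to 2203 in the lean line birds, and red blood cell markers (6 of 12) to 7578 to 28322 in the fat line birds and 21533 to 33977 in the lean line birds; no gene of either list reached 4 times its median in any bird. The part of these tissues in the liver gene signals was not tested.

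Further hepatocyte genes outside the set were read from the same fit. Of 29 other secreted protein genes measured (41 listed), 23 had a log2 fold below 0, with a median of -0.71; 4 were lower in the fat line at an unadjusted p under 0.05 and none was higher. Over all probe sets these shares were 55.7% below 0, 3.99% lower and 3.38% higher. Of 42 intracellular hepatocyte genes (52 listed), 28 had a log2 fold below 0, with a median of -0.18; 4 were lower at an unadjusted p under 0.05 and none was higher. No gene of either list passed the adjusted threshold. The mean deviation of the 29 secreted protein genes was -0.65 to 0.41 in the fat line birds, against 1.06 in lean line bird 1, 0.44 in lean line bird 5 and -0.25 to 0.15 in the other lean line birds. That of the 42 intracellular genes was -0.49 to 0.29 in the fat line birds, against 0.66 in lean line bird 1, -0.25 in lean line bird 5 and 0.01 to 0.16 in the other lean line birds, so that lean line bird 5 lay within the fat line for these genes. Lean line birds 1 and 5 were the 2 highest birds in 7 of the 29 secreted protein genes (TTR, GC, SERPINA10, F10, F13B, MBL2 and ORM1) and in 7 of the 42 intracellular ones (MAT1A, FBP1, FABP1, LBFABP, CYP27A1, ADH1C and UROC1), 24.1% and 16.7%, against 50% of the set. The transthyretin gene TTR, whose product carries thyroid hormone, had signals of 457.3 to 960.2 in the fat line birds, against 7260.8 in lean line bird 1, 2544.8 in lean line bird 5 and 392.3 to 920.0 in the other lean line birds. MAT1A, which makes S-adenosylmethionine in the liver, was 211.3 to 583.7 in the fat line birds, against 1593.9 and 1162.9 in lean line birds 1 and 5 and 329.7 to 556.6 in the others. APOA1, the gene of the main protein of high density lipoprotein, was 3712.9 to 16322.4 in the fat line birds, against 39215.3 in lean line bird 3, 17783.2 in lean line bird 5 and 14445.3 in lean line bird 1.

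The 10 genes outside the set whose log2 signals were most like the mean deviation of the 30 genes were AvBD9, PIT54, CYP3A5, LBFABP, PRPS2, C2orf40, APOA2, PSPH, SPINK5 and ORM1, ranked by Pearson r over the 10 birds among 12434 probe sets. Their r ran from 0.904 to 0.99, which is a description over points that share 2 far birds: without lean line birds 1 and 5, r over the other 8 birds ran from 0.054 (ORM1) to 0.931 (AvBD9). PIT54 encodes the plasma protein that binds hemoglobin in birds. Its signal was 12.5, 64.3, 27.7, 48.4 and 16.2 in fat line birds 1 to 5, against 17041.9, 18.6, 28.3, 423.9 and 5397.3 in lean line birds 1 to 5. ORM1, the gene of the acute phase protein alpha-1-acid glycoprotein, was 8.9 to 38.2 in the fat line birds, against 1536.8 and 1008.0 in lean line birds 1 and 5 and 15.5 to 34.6 in the other lean line birds. LBFABP encodes the basic fatty acid binding protein of bird liver and was 32.6 to 128.3 in the fat line birds, against 4864.5 and 844.5 in lean line birds 1 and 5, with 623.8 in lean line bird 4. AvBD9, a beta-defensin gene, was 143.8 to 498.4 in the fat line birds, against 3964.3 and 1481.1 in lean line birds 1 and 5. The ratio of lean line bird 1 to lean line bird 5 was 3.16 for PIT54, 1.52 for ORM1, 5.76 for LBFABP and 2.68 for AvBD9, beside 2.05 for ALB and a median of 1.55 over the 30 genes.

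**Figure D5:**
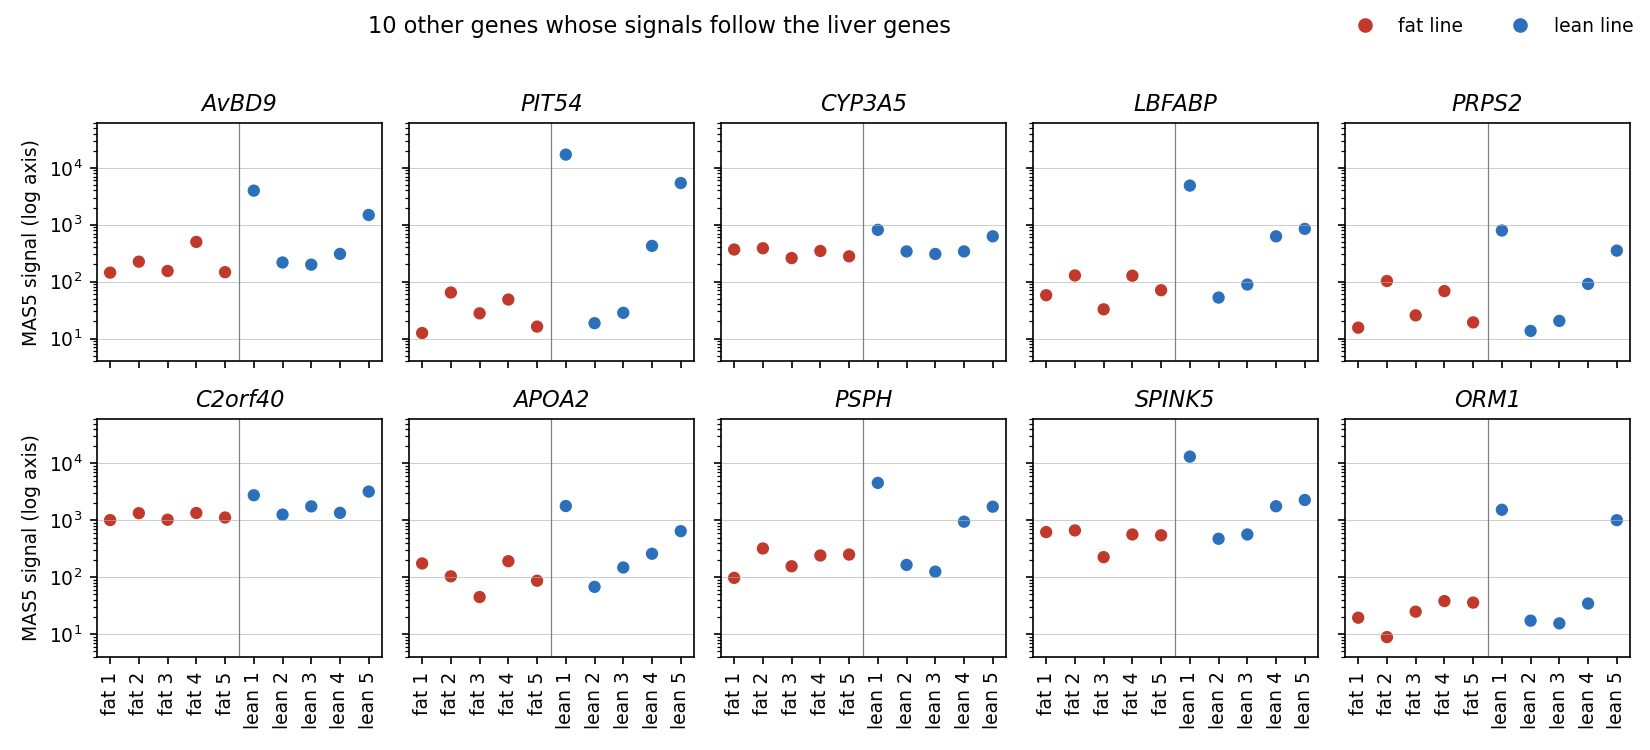
MAS5 signal (log axis) in each bird of the 10 genes outside the set that were most like it, fat line in red on the left and lean line in blue on the right, 1 point a bird. Lean line birds 1 and 5 are the 2 highest birds in each panel. Lean line bird 4 lies above every fat line bird in PIT54 (423.9), LBFABP (623.8), PSPH (948.9), SPINK5 (1773.1) and APOA2 (259.4). It also does so narrowly in C2orf40 (1356.3, against at most 1348.0 in the fat line), but not in the other panels.

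A few genes were high in lean line bird 1 and not in lean line bird 5. FABP2, which encodes the fatty acid binding protein of the intestine, was 1.0 to 47.9 in the fat line birds, against 476.3 in lean line bird 1, 39.5 in lean line bird 5 and 1.3 to 20.2 in the others. RBP2, which encodes the intestinal retinol carrier, was 5.3 to 44.8 in the fat line birds, against 488.9 in lean line bird 1 and 11.8 in lean line bird 5. These were the only 2 of the 15 intestinal markers measured that reached 4 times their median in lean line bird 1. The rest of that list went both ways in this bird. Its signals of FABP6 (349.4), MUC2 (101.2) and SLC6A19 (104.1) lay under every fat line bird. Those of SLC15A1 (242.5), CDH17 (222.2) and CDX1 (326.1) lay above every fat line bird, and for SLC15A1 and CDH17 it was the highest bird. APOA4, an apolipoprotein of intestine and liver, was 42.3 to 142.6 in the fat line birds, against 1573.6 in lean line bird 1 and 111.3 in lean line bird 5. Lean line bird 5 lay under 100 for FABP2 and RBP2, so no ratio of the birds is given for them; for APOA4 lean line bird 1 read 14.1 times lean line bird 5.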

How the data were processed

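Abdominal fat of 10 birds was profiled on 1 array each. The authors made the deposited signal intensity values with MAS5, per the labels, scaled to a common level (mean without the outer 2% of 500.1 on every array as checked here; total signal 27714343 to 29936208). Precision depends on how few arrays there are. After 96 controls were removed from 38535 probe sets, 38439 were tested; 27168 carried 1 symbol, 177 several and 11094 none, and only those with 1 symbol were named. A gene was represented by whichever of its probe sets was brightest on average (mean log2), and the others were also inspected. A deviation is the log2 signal minus the median of the 10 birds.

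For the contrast of fat against lean line, log2 signals were fitted in limma 3.58.1, under R 4.3.3 (eBayes with an intensity trend), Benjamini-Hochberg adjusted over all probe sets, with a threshold of 0.05, and single genes by an exact two-sided permutation test (all splits of 5 against 5, smallest possible p 0.0079). The fit was also run on simulated data with independent noise for each probe set. Those data held no birds that stand out across many genes, and no conclusion is drawn from them here. Tables and exact tests used scipy 1.17.1, pandas 2.3.3 and numpy 2.4.6 on Python 3.11.15. The labels call the birds biological replicates. Their numbers name birds and were checked for pairing. Alternatives covered scaling, low signals, dim probe sets, the variance prior, SAM (delta 0.8, 100 permutations), replicate, scan day and wash run blocks, and birds left out. The set and the lists were chosen with earlier results of these data known.

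Genes of the set given bird by bird were picked by rule. They were the 8 secreted protein and 4 enzyme genes of widest range among those reaching a signal of 500 (only 3 enzymes did). MTTP, the 3 genes of smallest p and the 3 of narrowest range were added. The 10 most alike outside the set were plotted bird by bird, and the text gives values of some of them. The rule allowed up to 4 genes of each other list, given mostly as ranges or single birds. Values of further genes, HRG, PLG, C5, C8A and APOB among them, were chosen after being seen. Gene order came from the RefSeq annotation (GRCg7b), and no coordinates are given here. Sequences and promoter motifs were not analysed here.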

Additional observations from a re-analysis of the deposited data

How the results depend on the processing

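No probe set of the set was called under any alternative; the smallest adjusted p among them ranged from 0.239 to 0.662. The median log2 fold of the 30 genes kept its sign, from -1.26 to -0.33, with single birds left out giving -1.26 to -0.65. SAM called 0 probe sets, and at an unadjusted p under 0.05 limma called 2835. Calls over all probe sets ranged from 0 to 2 when a bird was left out, with 1 without fat line bird 2, 2 without fat line bird 4 and 2 without lean line bird 5. The difference in median log2 fold between secreted protein and enzyme genes, -0.49, was -1.19 among the brighter 50% of the probe sets, where only 8 of the 30 genes were left, and 0.06 without lean line birds 1 and 5, an alternative chosen after seeing the data; with single birds left out it was -0.76 to -0.20. MTTP turned to 0.13 with signals under 100 set to 100 and to 0.09 with wash run as a block, and spanned -0.90 to 0.04 with single birds left out, above 0 without fat line bird 3. CP and UPB1 spanned -0.07 to 0.26 and -0.04 to 0.31, both below 0 without fat line bird 4. Without lean line birds 1 and 5, CP was -0.11 and APOH 0.12. The causes were not tested. With the replicate block the median was -0.98, with 0 calls; birds of the same number correlated at -0.136 to 0.063, so the numbers do not pair the birds. Quantile normalization and scaling to the same median left 25 of 30 genes below 0. Signals under 100, 26.5% to 34.6% of the probe sets of an array, carry little order.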
